A study of Saccharomyces cerevisiae with 15 samples.

Results

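The 31 genes described here encode the subunits of the nuclear RNA polymerases I, II and III of budding yeast, and they are 31 of the 5449 genes measured on the arrays. They were chosen by name, as gene symbols made of RPA, RPB or RPC and a number, with RPO21, RPO26, RPO31 and RET1 added, a rule that uses no measured value. Each of the 31 genes had 1 probe set, so the rule of keeping the probe set with the highest mean over 15 arrays left the choice unchanged. By the enzyme they belong to, 7 genes encode subunits of polymerase I only, 7 of polymerase II only and 10 of polymerase III only. A further 2 genes, RPC40 and RPC19, serve polymerases I and III, and 5 genes (RPB5, RPO26, RPB8, RPB10 and RPC10) serve all of them.

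The series asked how yeast responds to human IRAK proteins, members of a serine and threonine kinase family of Toll-like and interleukin-1 receptor signalling, which yeast itself lacks. All cultures were of strain YPH499, a laboratory strain of mating type a, and carried the plasmid pEG(KG), from which a GAL1 promoter expressed the insert once galactose was given. The groups were cells that overexpressed IRAK4, cells with IRAK4(KD), a form of IRAK4 without catalytic activity, cells with IRAK1, cells with IRAK2, and Control cells with the empty plasmid, with 3 biological replicates in each of the 5 groups. Cultures spent 18 h in raffinose medium at 30 °C, were diluted to an OD of 0.3 and then grew for 6 h in galactose medium, so galactose induction was shared by the Control cells. Total RNA of each culture was hybridised to 1 Affymetrix yeast array, and the level and activity of the human proteins were not measured on it. Because a value is a share of labelled RNA on its array, a change in a transcript and a change in the rest of the RNA of the cell cannot be told apart.

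Polymerase I transcribes only the large ribosomal RNA precursor, polymerase II transcribes messenger RNAs and many small nuclear RNAs, and polymerase III transcribes transfer RNAs, the 5S ribosomal RNA and other short RNAs. All have a core of related subunits around a catalytic centre formed by the largest and the second largest subunit, and they share a set of small subunits outright. In yeast, polymerases I and III account for most of the RNA that a growing cell makes, and their activity follows nutrient supply through TOR and protein kinase A signalling. The transcripts measured here are the messenger RNAs of the subunits, all of them made by polymerase II, and not the activity of the enzymes.

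Array medians lay between 8.72 and 8.87 on the deposited log2 scale, and replicate arrays correlated at 0.993 or more except in IRAK1, where the lowest correlation was 0.968. IRAK1 replicate 1 stood apart there, and called IRAK1 differences that leaving it out ended or moved by over 1.5 times are given below with their values without it. Differences that were not called, such as those of RPB4 and RPO41, are not all given without it. The markers of mating type a were MFA1 (8.53 to 9.88 on the 15 arrays), MFA2 (8.76 to 10.23), STE2 (8.08 to 9.99) and BAR1 (5.94 to 8.16). Those of mating type alpha were MF(ALPHA)1 (2.62 to 4.25), MF(ALPHA)2 (4.59 to 5.39) and STE3 (5.40 to 6.57). The ranges of BAR1 and STE3 overlapped, and each marker has its own probe set, so the mating type is taken from the strain. The means of the 31 subunit genes over 15 arrays ran from 7.46 (RPC17) to 11.29 (RPB8), all above the 5.12 that marks the lowest 5% of genes. These values depend on each probe set and are not compared between genes.

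Changes are log2 differences, with the standard error from limma after ±, fitted over all 15 arrays with 3 arrays in each group. The words rose, fell and called are kept for genes with a two-sided adjusted p under 0.05 (Benjamini-Hochberg over the 5449 genes). In IRAK1 cells 20 of the 31 subunit genes fell and 0 rose against Control, in a comparison where 28.2% of all genes were called lower and 30.6% higher. In IRAK4 cells 10 fell and 1 rose, where 16.4% of all genes were called lower and 28.2% higher. In IRAK4(KD) cells 2 fell and 1 rose, against 6.00% and 11.7% of all genes. In IRAK2 cells 0 fell and 2 rose, against 3.38% and 5.82% of all genes. The median difference over the 31 genes was -0.43 in IRAK1, -0.23 in IRAK4, -0.06 in IRAK4(KD) and 0.05 in IRAK2, where the median over all genes was 0.02, 0.08, 0.07 and 0.01. The IRAK1 median was -0.25 without IRAK1 replicate 1, with 17 genes called lower, close to the IRAK4 median. These comparisons share the Control arrays. The 5 genes RPO21, RPB11, RET1, RPC37 and RPC34 were called in none of them. The share of all genes called in none of them is not given here.

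**Figure D1:**
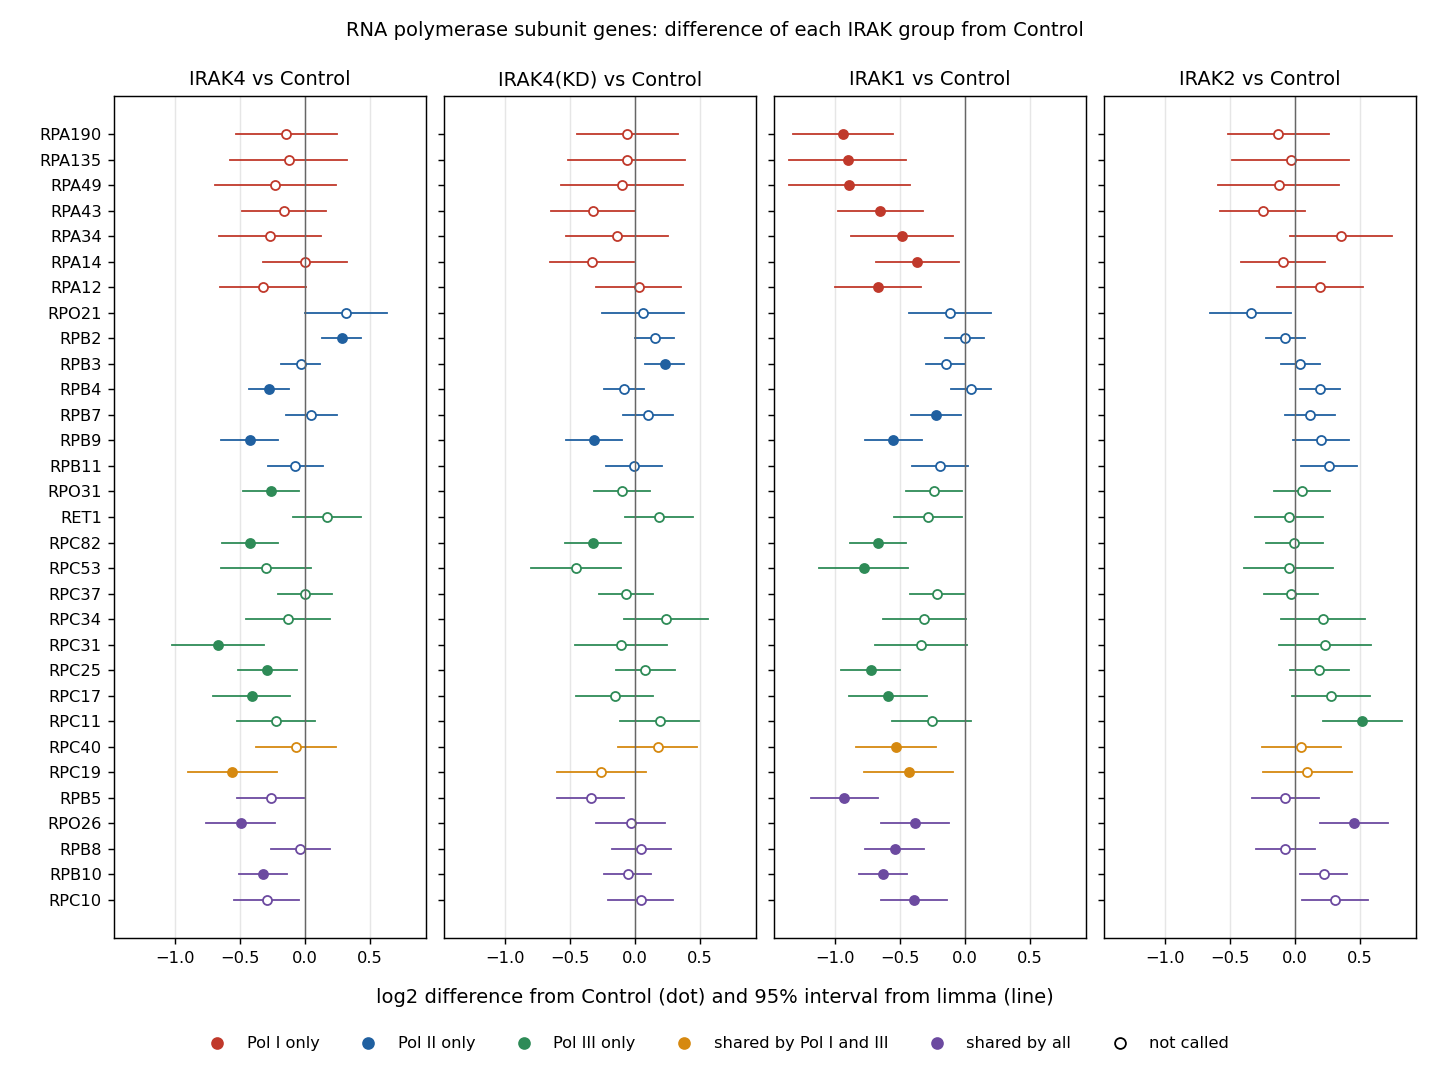
Log2 difference of the 31 subunit genes (rows, coloured by enzyme) from Control in cells with IRAK4, IRAK4(KD), IRAK1 and IRAK2, as dots with 95% intervals from limma, filled where the adjusted p was under 0.05. In IRAK1 all 7 polymerase I genes are filled and lie left of 0, from -0.94 (RPA190) to -0.37 (RPA14), while 2 of the 7 polymerase II genes are filled.

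The counts were not alike for the enzymes. In IRAK1 all 7 polymerase I genes fell, against 2 of the 7 polymerase II genes, 4 of the 10 polymerase III genes, both genes shared by polymerases I and III and all 5 genes shared by every enzyme. The polymerase II share of 28.6% was close to the 28.2% of all genes called lower. In IRAK4 the order of the counts was another, with 0 of 7 polymerase I genes called, 2 of 7 polymerase II genes lower and 1 higher, and 5 of 10 polymerase III genes lower. That order depends on the fit. All 7 polymerase I differences in IRAK4 were below 0, and up to 3 of the 7 were called lower when an array was left out, as given below. The medians of the classes in IRAK1 were -0.67 for polymerase I, -0.15 for polymerase II, -0.33 for polymerase III and -0.54 for the genes shared by all. Leaving out IRAK1 replicate 1 gave -0.43, -0.13, -0.17 and -0.39, so the polymerase III median was then close to that of polymerase II. In IRAK4 the same medians were -0.16, -0.03, -0.27 and -0.29.

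The arrays of IRAK1 differed in how far each class went. The median deviation of the polymerase I genes from their Control mean was -1.15, -0.38 and -0.47 on IRAK1 replicates 1, 2 and 3, and on Control arrays it was between -0.07 and 0.06. For the polymerase II genes it was -0.05, -0.04 and -0.22 on the same IRAK1 arrays, so replicate 1 did not stand apart in that class. For the polymerase III genes it was -0.78, -0.05 and -0.30. Subtracting the polymerase II median from the polymerase I median within each array gave -1.10, -0.34 and -0.25 in IRAK1, against values between -0.09 and 0.09 in Control. It was below 0 in the other IRAK groups too, at -0.16, -0.26 and -0.07 in IRAK4, at -0.24, -0.13 and -0.28 in IRAK4(KD) and at -0.25, -0.08 and -0.21 in IRAK2. Only the IRAK1 replicate 1 and 2 values lay below all of these. The same subtraction for polymerase III gave -0.73, -0.01 and -0.08 in IRAK1, so the gap to polymerase II rested on replicate 1. In IRAK4 it gave -0.24, -0.29 and -0.24 on the arrays, against -0.05, -0.01 and 0.06 in Control, with no overlap between these groups. The IRAK4(KD) values were -0.19, -0.05 and -0.17, also below Control, although 1 of them matches the lowest Control value at this rounding, and the IRAK2 values were -0.03, -0.02 and 0.02.

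**Figure D2:**
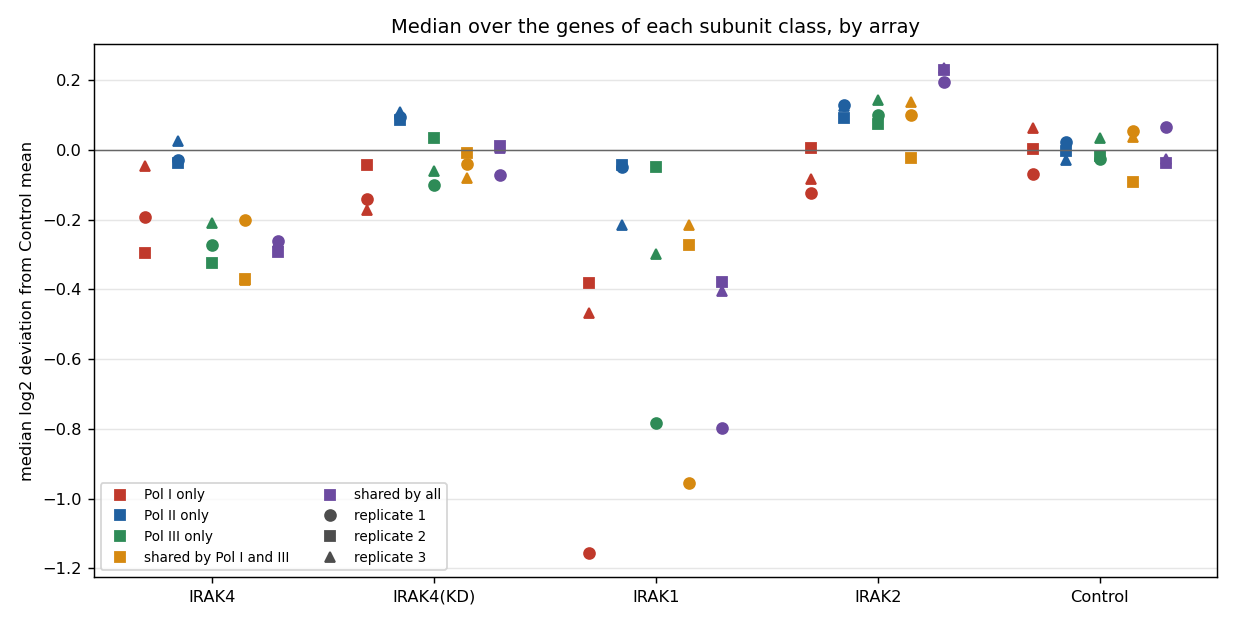
Median over the genes of each subunit class of the log2 deviation from the Control mean (vertical axis), for each of the 15 arrays (symbols mark the replicate, colours the class, groups run along the horizontal axis). IRAK1 replicate 1 is the lowest array for every class but polymerase II, at -1.15 for polymerase I, and the Control arrays lie near 0 because the deviations are taken from their mean.

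The 7 polymerase I genes all fell in IRAK1. RPA190, the gene of its largest and catalytic subunit, had 8.90, 9.78 and 9.88 in IRAK1 arrays, against 10.48, 10.46 and 10.44 in Control arrays. All IRAK1 arrays lay below all Control arrays, with a difference of -0.94 ± 0.18, a 1.92-fold lower level (adjusted p = 0.000503), and RPA190 was still called lower without IRAK1 replicate 1, at -0.63. RPA135, which encodes the second largest subunit, had 9.20, 10.39 and 10.19 in IRAK1, against 10.82, 10.83 and 10.83 in Control (-0.90 ± 0.21, adjusted p = 0.00215). Its difference without replicate 1 was -0.54, also called. RPA49, part of a heterodimer with the RPA34 product that is related to the general factor TFIIF, had 7.86, 9.08 and 8.94 in IRAK1, against 9.45, 9.52 and 9.58 in Control, a difference of -0.89 ± 0.22 (adjusted p = 0.0031) that stood at -0.51 without replicate 1 and was still called.

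The remaining polymerase I genes fell by less. RPA43, a stalk subunit that contacts the initiation factor Rrn3, fell by 0.65 ± 0.15, and RPA12, a zinc ribbon subunit needed for RNA cleavage, fell by 0.67 ± 0.15. Without IRAK1 replicate 1 these differences were -0.41 and -0.43, both called. RPA34 fell by 0.49 ± 0.18 (adjusted p = 0.0335) and RPA14, the other stalk subunit, by 0.37 ± 0.15 (adjusted p = 0.0485). RPA14 had 9.38, 9.88 and 10.10 in IRAK1, against 10.03, 10.11 and 10.32 in Control, so its groups overlapped. Without IRAK1 replicate 1, RPA34 (-0.20) and RPA14 (-0.16) were not called, which left 5 of the 7 genes lower and a class median of -0.43. The RPA34 call also ended without Control replicate 1 (-0.45) or 2 (-0.48), and the RPA14 call without Control replicate 2 (-0.39), Control replicate 3 (-0.28) or IRAK1 replicate 2 (-0.41). Both calls ended with array weights and in the fit of only the 6 arrays compared, and the RPA14 call also with quantile normalization. RPA190 and RPA43 are next to each other in the yeast genome by the RefSeq gene order and are the only adjacent pair among the 31 genes.

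In the other groups 0 of the 7 polymerase I genes were called. RPA190 had 10.27, 10.20 and 10.46 in IRAK4, 10.42, 10.41 and 10.37 in IRAK4(KD), and 10.33, 10.39 and 10.26 in IRAK2, against 10.48, 10.46 and 10.44 in Control. Differences of the class ran from -0.32 (RPA12) to 0.00 (RPA14) in IRAK4, from -0.33 (RPA14) to 0.03 (RPA12) in IRAK4(KD) and from -0.25 (RPA43) to 0.35 (RPA34) in IRAK2. At an unadjusted p under 0.05 the counts were 0, 1 and 0. In a fit of the other 14 arrays, which leaves IRAK1 replicate 1 out of the spread, 3 of the 7 were called lower in IRAK4 (RPA12 at -0.32, RPA34 at -0.27 and RPA49 at -0.23), 2 were called lower in IRAK4(KD) (RPA43 at -0.32 and RPA14 at -0.33), and for IRAK2 RPA34 was called higher (0.35) and RPA43 lower (-0.25). Array weights called 6 of the 7 lower in IRAK4, with a class median of -0.19. The shares of all genes given above belong to the main fit. Those under these alternative fits are not given here, so their counts are not set against a background.

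**Figure D3:**
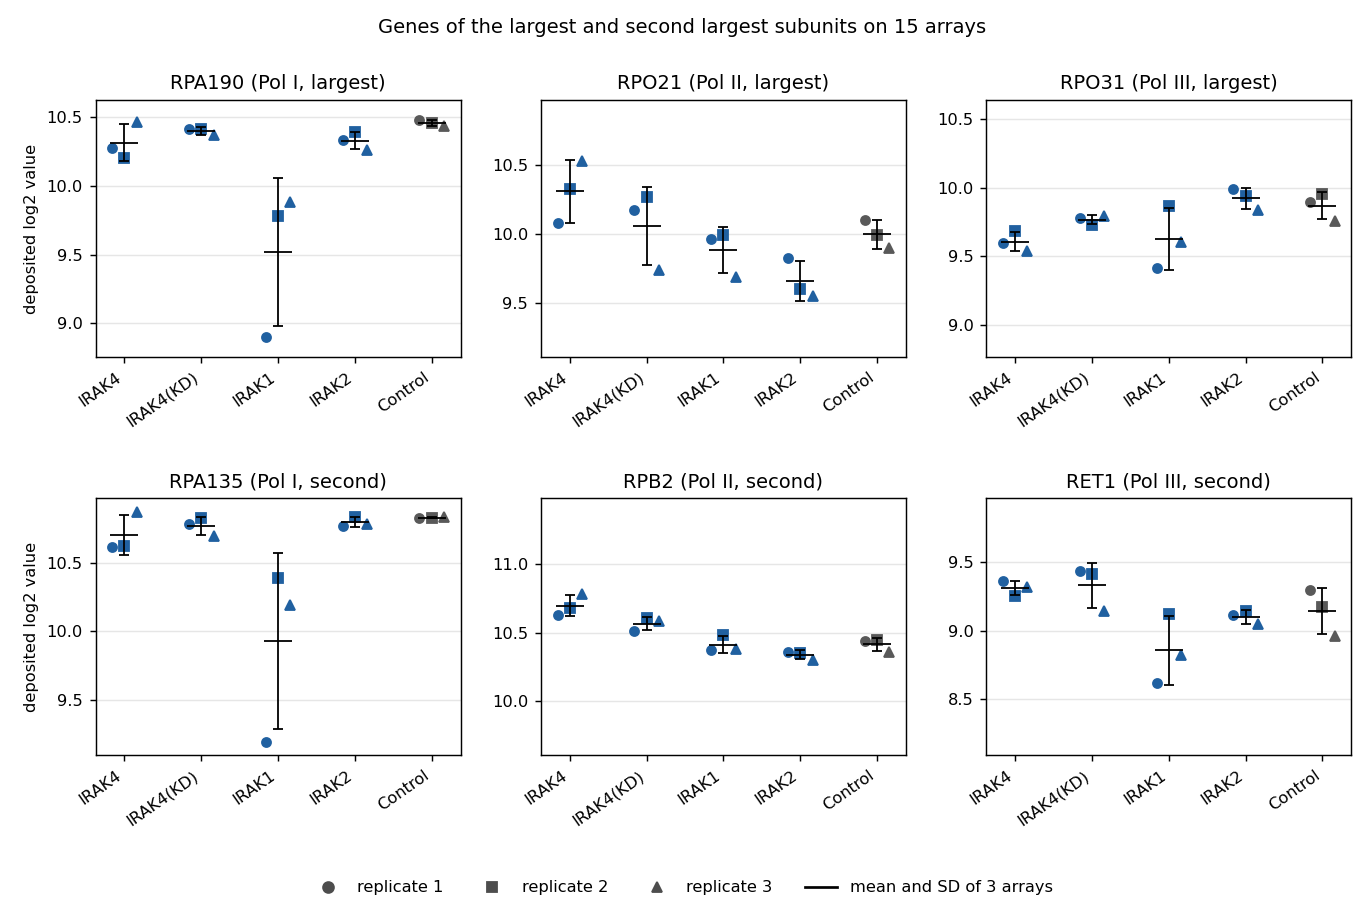
Deposited log2 values of the genes of the largest subunit (upper row) and the second largest subunit (lower row) of polymerases I, II and III on 15 arrays, with the mean and SD of 3 arrays per group. RPA190 and RPA135 are lower in all 3 IRAK1 arrays than in any Control array, RPB2 is higher in all 3 IRAK4 arrays than in Control, and RPO21 is lower in all 3 IRAK2 arrays than in Control, a difference that was not called.

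No catalytic core gene of polymerase II was called lower in any IRAK group against Control. RPO21, the gene of the largest subunit whose C-terminal repeats are phosphorylated through the transcription cycle, had 10.08, 10.33 and 10.53 in IRAK4, 9.96, 9.99 and 9.69 in IRAK1 and 9.82, 9.60 and 9.55 in IRAK2, against 10.10, 9.99 and 9.90 in Control. None of its differences was called (0.31 ± 0.15 in IRAK4, -0.12 ± 0.15 in IRAK1, -0.34 ± 0.15 in IRAK2), although its IRAK2 arrays all lay below its Control arrays. RPB2, the gene of the second largest subunit, had 10.63, 10.68 and 10.78 in IRAK4, against 10.44, 10.45 and 10.36 in Control. That rise of 0.28 ± 0.07 (adjusted p = 0.00475) was the only rise of a subunit gene in IRAK4. In IRAK1 RPB2 was at 0.00 ± 0.07, with a 95% interval of the difference from -0.15 to 0.15.

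Calls among the smaller polymerase II genes were mixed. RPB9, the zinc ribbon subunit that takes part in start site choice and fidelity, had 9.25, 9.14 and 9.31 in IRAK4, 9.31, 9.27 and 9.45 in IRAK4(KD) and 8.86, 9.16 and 9.31 in IRAK1, against 9.67, 9.68 and 9.63 in Control. Every array of these groups lay below every Control array, and RPB9 fell in IRAK4 (-0.43 ± 0.10), IRAK4(KD) (-0.32 ± 0.10) and IRAK1 (-0.55 ± 0.10). The IRAK4(KD) call of RPB9 (adjusted p = 0.0455) ended when any of the Control arrays or IRAK4(KD) replicate 1 or 2 was left out, with differences from -0.37 to -0.28 over all alternatives. RPB4, which forms the stalk of polymerase II with the RPB7 product, had 9.90, 9.82 and 9.92 in IRAK4, against 10.19, 10.12 and 10.17 in Control (-0.28 ± 0.07, adjusted p = 0.00605). Its partner RPB7 was at 0.05 ± 0.09 in IRAK4 and fell by 0.22 ± 0.09 in IRAK1 (adjusted p = 0.0451), where RPB4 was at 0.05 ± 0.07. The RPB7 arrays overlapped, with 9.62, 9.47 and 9.24 in IRAK1 and 9.76, 9.66 and 9.57 in Control, and the call ended without Control replicate 1 or 2 or IRAK1 replicate 2 or 3 (differences from -0.31 to -0.12 over all alternatives). It also ended in the fit of only the 6 arrays compared. RPB3, a subunit of the assembly platform, rose by 0.23 ± 0.07 in IRAK4(KD) (adjusted p = 0.0416), a call that ended without any of the Control or IRAK4(KD) arrays (0.19 to 0.23 over all alternatives), and its neighbour in that platform, RPB11, was called in 0 groups. The RPB3 call also ended with median centring, quantile normalization and the replicate block.

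Polymerase III showed falls in its peripheral subunits in both IRAK4 and IRAK1. RPC82, RPC34 and RPC31 encode a heterotrimer that acts in initiation and is found only in polymerase III. RPC31 had 8.50, 8.37 and 8.80 in IRAK4, against 9.15, 9.19 and 9.34 in Control, a fall of 0.67 ± 0.17 (1.59-fold, adjusted p = 0.00469) and the deepest of the 31 genes in that comparison. RPC82 had 8.70, 8.58 and 8.82 in IRAK4 and 8.28, 8.44 and 8.64 in IRAK1, against 9.04, 9.08 and 9.24 in Control. It fell by 0.42 ± 0.10 in IRAK4 and by 0.67 ± 0.10 in IRAK1 (adjusted p = 0.00402 and 7.27e-05), and by 0.32 ± 0.10 in IRAK4(KD), where the call ended in 5 of 6 fits that left out a Control or IRAK4(KD) array. RPC34, the third member, was called in 0 groups, with differences from -0.31 in IRAK1 (-0.09 without replicate 1) to 0.24 in IRAK4(KD). RPC31 in IRAK1 was at -0.34 ± 0.17, with arrays of 8.42, 9.18 and 9.08 that overlapped with Control, and at -0.10 without replicate 1.

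The stalk of polymerase III, encoded by RPC25 and RPC17, fell in both kinase groups as well. RPC25 had 7.34, 7.61 and 7.54 in IRAK1, against 8.25, 8.16 and 8.26 in Control (-0.72 ± 0.11, adjusted p = 5.00e-05), and its IRAK4 values were 7.79, 7.85 and 8.16 (-0.29 ± 0.11, adjusted p = 0.0383). RPC17 fell by 0.59 ± 0.14 in IRAK1 and by 0.41 ± 0.14 in IRAK4. RPC53, which with the RPC37 product forms the TFIIF-related heterodimer of polymerase III, had 7.04, 7.75 and 7.85 in IRAK1, against 8.16, 8.33 and 8.48 in Control (-0.78 ± 0.16, adjusted p = 0.000863). Without IRAK1 replicate 1 RPC53 was at -0.52, still called, and RPC17 at -0.40, also called. RPC37 was called in 0 groups, at 0.00 ± 0.10 in IRAK4 and -0.21 ± 0.10 in IRAK1. Of the catalytic core, RPO31 (the largest subunit) fell by 0.26 ± 0.10 in IRAK4 (adjusted p = 0.0484) and RET1 (the second largest) was at 0.17 ± 0.12.

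The number of polymerase III genes called depended on single arrays. In IRAK4 it was 5, 2 without Control replicate 2 or IRAK4 replicate 1 or 2, and 3 without Control replicate 1 or 3. The calls of RPO31, RPC25 and RPC17 were the ones lost, with differences between -0.52 and -0.21 over all alternatives, while RPC82 and RPC31 were called in every alternative. In IRAK1 it was 4, and all 10 genes were called lower without IRAK1 replicate 2. IRAK1 replicate 1 was the lowest IRAK1 array for 10 of the 10 genes, and without it 4 were called. Shares of all genes called with an array left out are not given here, so these counts are not set against a background.

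All 7 genes shared between enzymes fell in IRAK1. RPB5, a subunit of all enzymes at the downstream DNA, had 9.57, 9.99 and 10.16 in IRAK1, against 10.71, 10.89 and 10.90 in Control. Its fall of 0.93 ± 0.12, or 1.90-fold, had an adjusted p of 1.71e-05, and it was at -0.76 without IRAK1 replicate 1, still called. RPB8 (-0.54 ± 0.11), RPB10 (-0.63 ± 0.08), RPC10 (-0.39 ± 0.12) and RPO26 (-0.39 ± 0.12) fell too, and in all 5 genes the IRAK1 arrays lay below the Control arrays, as did 28.6% of all genes. All 5 were also called without IRAK1 replicate 1, where RPC10 was at -0.25 and RPO26 at -0.20. The RPC10 call ended with array weights (-0.20) and when only the 6 arrays compared were fitted (-0.39), and the RPO26 call ended in that last fit too. RPC40 and RPC19, which form the assembly platform of polymerases I and III in place of RPB3 and RPB11, fell by 0.53 ± 0.14 and 0.43 ± 0.16, and without IRAK1 replicate 1 RPC40 was at -0.31, still called, and RPC19 at -0.18, not called. Both calls ended in the fit of only the 6 arrays compared. The RPC19 call also ended with array weights and without Control replicate 1 or 3. The polymerase II counterparts RPB3 (-0.15 ± 0.07) and RPB11 (-0.19 ± 0.10) were not called, although all of their IRAK1 arrays lay below Control.

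In IRAK4 the shared genes that fell were RPO26, RPB10 and RPC19. RPO26, whose product helps to hold the largest subunit in place, had 10.09, 10.03 and 10.16 in IRAK4, 10.47, 10.60 and 10.59 in IRAK4(KD), 9.82, 10.36 and 10.43 in IRAK1 and 10.99, 11.03 and 11.11 in IRAK2, against 10.64, 10.55 and 10.58 in Control. It was the only subunit gene called in opposite directions, lower in IRAK4 (-0.50 ± 0.12, adjusted p = 0.00491) and IRAK1 (adjusted p = 0.0148) and higher in IRAK2 (0.45 ± 0.12, adjusted p = 0.0336). RPC19 fell by 0.56 ± 0.16 in IRAK4, a call that ended without Control replicate 3 (-0.49), and RPB10 fell by 0.32 ± 0.08. RPB8 was at -0.04 ± 0.11 and RPC40 at -0.07 ± 0.14. With arrays centred on their median, 4 of the 5 genes shared by all enzymes were called lower in IRAK4, in a fit whose share of all genes called is not given here.

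**Figure D4:**
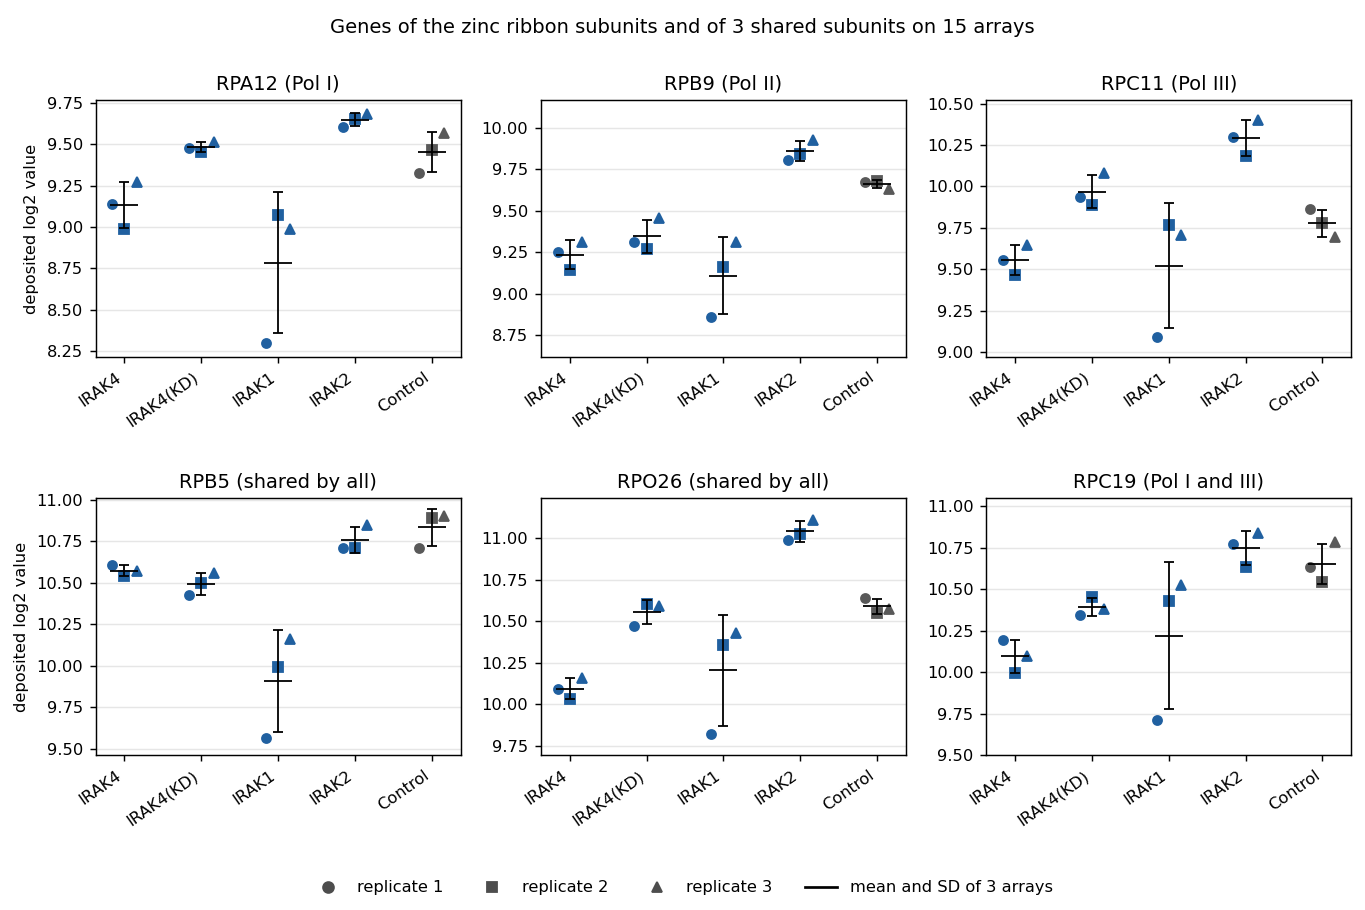
Deposited log2 values on 15 arrays of the zinc ribbon subunit genes RPA12, RPB9 and RPC11 (upper row) and of RPB5, RPO26 and RPC19 (lower row), with the mean and SD of 3 arrays per group. RPO26 is above Control in IRAK2 and below it in IRAK4 and IRAK1, and IRAK1 replicate 1 is the lowest array in each panel.

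Homologous subunits of the enzymes can be set side by side within a group. In IRAK1 the largest subunits were at -0.94 (RPA190), -0.12 (RPO21) and -0.24 (RPO31), and the second largest at -0.90 (RPA135), 0.00 (RPB2) and -0.29 (RET1). The first stalk subunits were at -0.65 (RPA43), -0.22 (RPB7) and -0.72 (RPC25), and the other stalk subunits at -0.37 (RPA14), 0.05 (RPB4) and -0.59 (RPC17). The zinc ribbon subunits were at -0.67 (RPA12), -0.55 (RPB9) and -0.26 (RPC11). The core polymerase III genes RPO31 and RET1 were at -0.13 and -0.17 without IRAK1 replicate 1, and RPC11 was at -0.04. So in IRAK1 the polymerase I gene fell in each of these 5 sets, the polymerase III gene fell in both stalk sets, and the polymerase II gene fell in the RPB7 and RPB9 sets. In IRAK4 the 6 genes of the largest and second largest subunits had a median of 0.02, and 3 of them were above 0, while the other 25 genes had a median of -0.27 and 1 of them, RPB7, was above 0.

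IRAK4 was set against IRAK4(KD), its form without catalytic activity. As protein levels were not measured, a difference in activity and a difference in protein level cannot be told apart here. Of the 31 genes 8 were lower and 0 higher in IRAK4, where 15.3% of all genes were called lower and 19.7% higher, and the median was -0.12 against 0.00 for all genes. The 8 genes were RPB3 and RPB4 of polymerase II, RPC31, RPC25 and RPC11 of polymerase III, and RPO26, RPB10 and RPC10 of all enzymes. RPC31 had 8.50, 8.37 and 8.80 in IRAK4, against 9.05, 9.21 and 9.10 in IRAK4(KD), a difference of -0.56 ± 0.17 (adjusted p = 0.0161). RPO26 differed by -0.46 ± 0.12 (adjusted p = 0.00953) and RPC11, a zinc ribbon subunit that acts in termination, by -0.41 ± 0.14 (adjusted p = 0.0347). RPB3 differed by -0.26 ± 0.07, with 9.15, 9.08 and 9.20 in IRAK4 and 9.41, 9.40 and 9.39 in IRAK4(KD).

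Of these 8 calls, RPB3 and RPO26 held in every alternative. Leaving out an IRAK4 array left 2 calls (replicate 1), 3 calls (replicate 2) or 6 calls (replicate 3), and leaving out an IRAK4(KD) array left 4 calls (replicate 1) or 3 (replicate 2 or 3). RPC82 and RPB9, which were called lower in both groups against Control, differed by -0.10 ± 0.10 and -0.11 ± 0.10 between IRAK4 and IRAK4(KD). RPB2, called higher against Control in IRAK4 but not in IRAK4(KD), differed by 0.13 ± 0.07 between them (adjusted p = 0.158), with a 95% interval from -0.02 to 0.28.

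IRAK1 was also set against IRAK4 directly. Here 14 of the 31 genes were lower and 1 higher in IRAK1, where 28.0% of all genes were called lower and 18.3% higher, and the median of the 31 was -0.27 against -0.08 for all genes. Polymerase I genes gave 4 of the 14, RPA190 (-0.79 ± 0.18), RPA135 (-0.77 ± 0.21), RPA49 (-0.66 ± 0.22) and RPA43 (-0.49 ± 0.15). Polymerase II gave RPO21 (-0.43 ± 0.15), RPB2 (-0.28 ± 0.07) and RPB7 (-0.27 ± 0.09), and polymerase III gave RET1 (-0.45 ± 0.12), RPC53 and RPC25. The shared genes gave RPB5 (-0.66), RPB8 (-0.50), RPB10 (-0.31) and RPC40 (-0.46). Of the 15 calls, the 4 of RPA190, RET1, RPB5 and RPB8 held in every alternative. The RPO21 call ended in 5 of 14 alternatives and the RPB7 call in 4 of 14. RPB4 was the gene higher in IRAK1, with 10.33, 10.20 and 10.10 in IRAK1, against 9.90, 9.82 and 9.92 in IRAK4 (0.33 ± 0.07, adjusted p = 0.00183). RPC31 was at 0.33 ± 0.17 and not called, and without IRAK1 replicate 1 it was called higher in IRAK1 at 0.57, together with RPC19 (0.38) and RPO26 (0.30). Without that array RPA190 was at -0.49, RPA135 at -0.41, RPA49 at -0.28, RPA43 at -0.25 and RPC40 at -0.24, all called, RPC53 at -0.22 was not called, and the median of the 31 was -0.16. Without IRAK4 replicate 3 the polymerase I calls numbered 2.

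In IRAK2 cells 2 subunit genes rose against Control and 29 were not called. RPC11 had 10.30, 10.18 and 10.40 in IRAK2, against 9.86, 9.78 and 9.70 in Control, a rise of 0.52 ± 0.14 (1.43-fold, adjusted p = 0.0346). The other call was RPO26, whose values are given above. Both calls ended when any of the IRAK2 or Control arrays was left out (0.46 to 0.57 for RPC11 and 0.42 to 0.49 for RPO26 over all alternatives). In the fit that leaves IRAK1 replicate 1 out of the spread, 7 genes were called higher and 1, RPA43, lower. The share of all genes called in that fit is not given here. The 6 genes of the largest and second largest subunits had a median of -0.06 in IRAK2, and the other 25 a median of 0.19, with 17 of those 25 above 0.

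Genes of the factors that work with each polymerase were followed as lists. SPT15 is in the lists of polymerases I, II and III, so a call of it counts in each. Of 12 polymerase I factor genes 4 (33.3%, against 16.4% of all genes) fell in IRAK4 and 2 (16.7%, against 6.00%) fell in IRAK4(KD). In IRAK1 7 (58.3%, against 28.2%) fell and 1 (8.33%, against 30.6%) rose, and in IRAK2 1 (8.33%, against 5.82%) rose. RRN3, the factor that makes polymerase I able to start, had 8.07, 7.94 and 8.29 in IRAK4, 8.41, 8.40 and 8.46 in IRAK4(KD), 7.92, 8.42 and 8.47 in IRAK1 and 8.82, 8.57 and 8.55 in IRAK2, against 8.96, 8.99 and 8.96 in Control. All arrays of the IRAK groups lay below the Control arrays. RRN3 fell by 0.87 ± 0.13 in IRAK4 (adjusted p = 0.000132), by 0.55 ± 0.13 in IRAK4(KD) (adjusted p = 0.0133) and by 0.70 ± 0.13 in IRAK1 (adjusted p = 0.000437). In IRAK2 it was at -0.32 ± 0.13 and not called, and the IRAK4(KD) call ended without Control replicate 3 (-0.55). RRN11, a core factor gene, fell by 0.84 ± 0.18 in IRAK1, and RRN10, of the upstream activating factor, rose there by 0.75 ± 0.11.

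Of 11 polymerase III factor genes 3 rose in IRAK4 (27.3%, close to the 28.2% of all genes) and 4 rose in IRAK4(KD) (36.4%, against 11.7%). In IRAK1 5 rose (45.5%, against 30.6%) and 1 fell (9.09%, against 28.2%), the shared gene SPT15 (-0.31). In IRAK2 limma called 0, where the median difference was 0.14 and 2 had an unadjusted p under 0.05. When IRAK1 replicate 1 was left out, 3 were called higher in IRAK1. MAF1, the repressor of polymerase III that is active when nutrient signalling is low, had 9.01, 8.89 and 9.23 in IRAK4, 9.01, 9.04 and 9.04 in IRAK4(KD), 9.18, 9.09 and 9.05 in IRAK1 and 8.45, 8.56 and 8.54 in IRAK2, against 8.66, 8.52 and 8.44 in Control. It rose in IRAK4 (0.50 ± 0.09), IRAK4(KD) (0.49 ± 0.09) and IRAK1 (0.57 ± 0.09) and was at -0.02 ± 0.09 in IRAK2. BRF1, a subunit of the initiation factor TFIIIB, rose by 0.44 ± 0.10 in IRAK4(KD) and by 0.52 ± 0.10 in IRAK1. The IRAK4(KD) call of BRF1 ended without Control replicate 3 (0.36). TFC1 and TFC3, of the promoter-binding factor TFIIIC, rose in IRAK4 by 0.49 ± 0.13 and 0.30 ± 0.09, and the TFC3 call ended without Control replicate 3 (0.22) or IRAK4 replicate 3 (0.21).

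**Figure D5:**
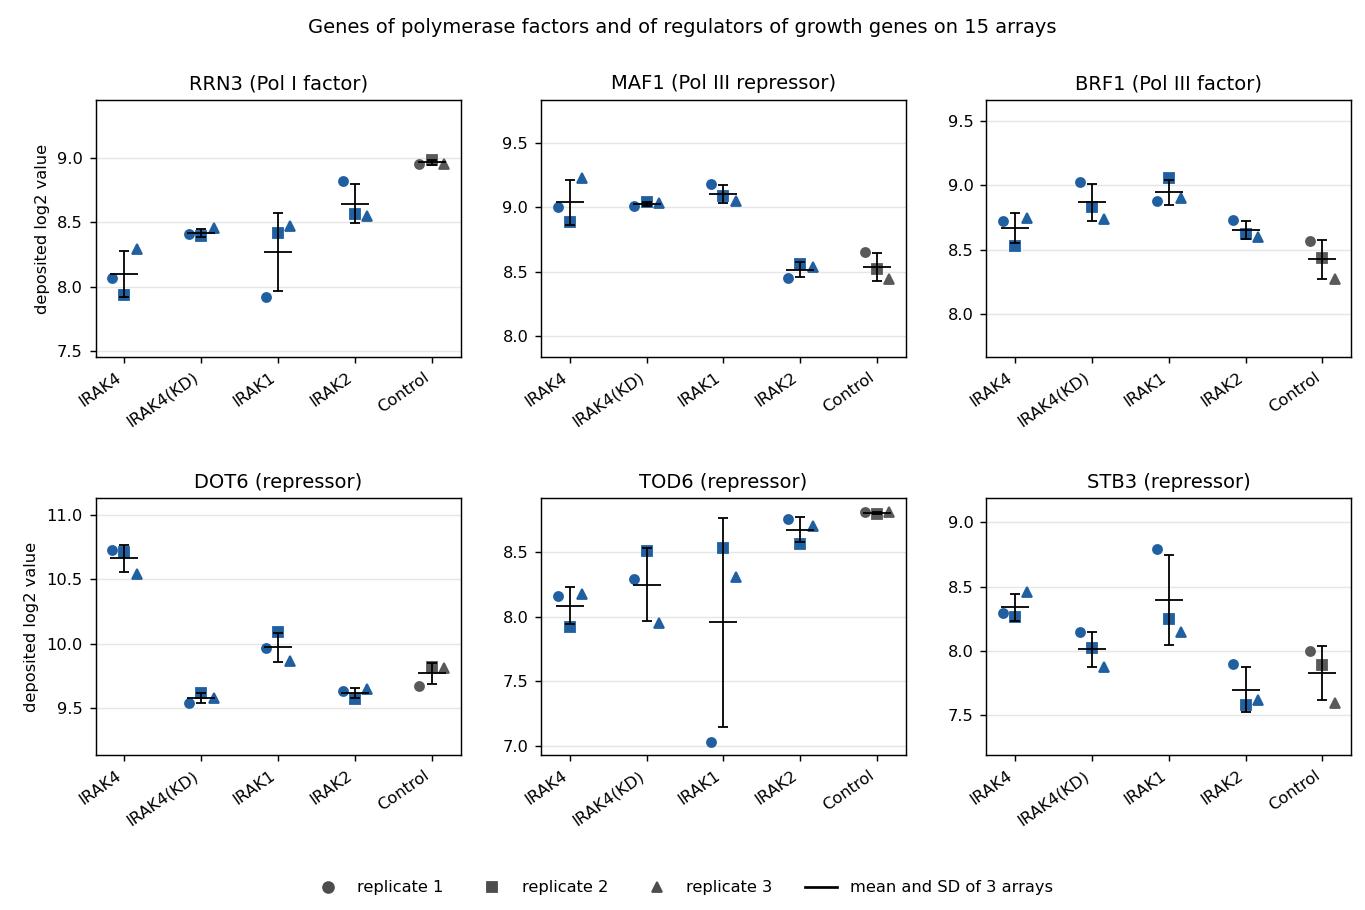
Deposited log2 values on 15 arrays of the polymerase factor genes RRN3, MAF1 and BRF1 and of the repressor genes DOT6, TOD6 and STB3, with the mean and SD of 3 arrays per group. RRN3 is below Control on every array of the IRAK groups, MAF1 is above Control in IRAK4, IRAK4(KD) and IRAK1, and DOT6 is highest in IRAK4.

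Of 23 genes for general factors of polymerase II, 5 were higher and 4 lower in IRAK4, 2 and 1 in IRAK4(KD), 7 and 4 in IRAK1, and 1 and 0 in IRAK2. These counts were near or below the shares over all genes, at 17.4% lower in IRAK4 against 16.4%, and 30.4% higher in IRAK1 against 30.6%. TOA2, the small subunit of TFIIA, fell by 0.52 ± 0.07 in IRAK4 and rose by 0.40 ± 0.07 in IRAK2. Of 8 genes for the assembly and nuclear import of polymerases, 1 rose and 1 fell in IRAK4, 1 fell in IRAK4(KD), 2 rose and 1 fell in IRAK1, and 2 rose in IRAK2. Each count of 1 is 12.5% of the list, below the 16.4% lower and 28.2% higher of all genes in IRAK4. In IRAK4(KD) the same 12.5% was above the 6.00% of all genes called lower. In IRAK1 the shares were 25.0% higher, against 30.6%, and 12.5% lower, against 28.2%. The 2 rises in IRAK2 are 25.0%, against 5.82%. Without IRAK1 replicate 1 there were 4 rises in IRAK1. IWR1, which guides polymerase II into the nucleus, rose in IRAK4 (0.35 ± 0.10), IRAK1 (0.61 ± 0.10) and IRAK2 (0.39 ± 0.10), where the call ended without Control replicate 2 or 3 or any IRAK2 array (0.36 to 0.40). RPO41, which encodes the unrelated mitochondrial RNA polymerase, was called in 0 groups against Control (-0.07 ± 0.11 in IRAK4, -0.06 ± 0.11 in IRAK1), while its specificity factor MTF1 fell by 0.30 ± 0.08 in IRAK4 and by 0.77 ± 0.08 in IRAK1.

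Regulators of growth genes were measured beside their known targets. Of 9 regulator genes 3 rose (33.3%, against 30.6% of all genes) and 4 fell (44.4%, against 28.2%) in IRAK1. In IRAK4 2 rose (22.2%, against 28.2%) and 1 fell (11.1%, against 16.4%). The largest change against Control was that of CRF1, which rose by 3.09 ± 0.21 in IRAK1 (adjusted p = 3.43e-08). It fell by 1.15 ± 0.21 in IRAK4(KD), where its mean of 5.05 was below the 5.12 that marks the lowest 5% of genes. DOT6 and TOD6 encode related repressors that bind the PAC element found before many polymerase I and ribosome biogenesis genes. DOT6 had 10.73, 10.71 and 10.54 in IRAK4, 9.54, 9.61 and 9.58 in IRAK4(KD), 9.97, 10.09 and 9.86 in IRAK1 and 9.63, 9.57 and 9.65 in IRAK2, against 9.67, 9.82 and 9.81 in Control. It rose by 0.89 ± 0.08 in IRAK4 against Control (adjusted p = 1.21e-06) and by 1.09 ± 0.08 against IRAK4(KD) (adjusted p = 3.00e-07). TOD6 fell in the same IRAK4 cells, with 8.16, 7.92 and 8.18 in IRAK4, against 8.81, 8.80 and 8.81 in Control (-0.72 ± 0.27, adjusted p = 0.0449), a call that ended without any of these arrays (-0.77 to -0.64). In IRAK1 TOD6 had 7.03, 8.54 and 8.31 (-0.85 ± 0.27), and without replicate 1 it was at -0.39, still called. STB3, a repressor that binds the RRPE element, rose by 0.51 ± 0.16 in IRAK4 and by 0.57 ± 0.16 in IRAK1 (0.37 without replicate 1, still called), and the IRAK4 call ended without Control replicate 3 (0.39) or IRAK4 replicate 3 (0.45). SFP1, an activator of ribosome biogenesis genes, fell by 0.43 ± 0.12 in IRAK1 and by 0.43 ± 0.12 in IRAK2, and was at 0.06 ± 0.12 in IRAK4. The IRAK2 call of SFP1 ended without any of the Control arrays or IRAK2 replicate 2 or 3 (-0.46 to -0.38).

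The wider growth programme gives the setting of the subunit genes. Of 108 ribosome biogenesis factor genes 94 fell in IRAK1, 33 in IRAK4, 6 in IRAK4(KD) and 0 in IRAK2 by limma (4 at an unadjusted p under 0.05), with medians of -0.70, -0.39, -0.18 and 0.00. As shares these are 87.0%, 30.6%, 5.56% and 0%, against 28.2%, 16.4%, 6.00% and 3.38% of all genes called lower, so IRAK4(KD) was at the background. In IRAK1 79 fell when replicate 1 was left out, and the median was -0.38. Of 127 ribosomal protein genes 121 fell in IRAK1 and 58 in IRAK4, with medians of -0.52 and -0.27, which is 95.3% and 45.7% of the list. IRAK1 replicate 1 was the lowest IRAK1 array for 108 of the 108 biogenesis genes, 27 of the 31 subunit genes and 36.9% of all genes. For the polymerase I genes it was lowest in 7 of 7, with a median gap of -0.86 to the mean of the other IRAK1 arrays, and for the polymerase II genes in 3 of 7, with a median gap of -0.05. The part of that array in the differences between the enzymes was measured by leaving it out, which kept 5 polymerase I genes and 2 polymerase II genes lower in IRAK1.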

How the data were processed

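Per the submitters' processing notes, the authors made the deposited log2 values with GCRMA, which corrects background and summarises the probes of each Affymetrix probe set; its version is not given in the sources used here. Of 5716 probe sets, 218 not paired with exactly 1 gene by the platform annotation were left out, and 12 symbols were updated through RefSeq. For 47 genes with several probe sets, that with the highest mean was kept, which left 5449 genes. Values were used without further scaling or filter. Group means over 15 arrays were fitted with limma 3.58.1 in R 4.3.3 (lmFit, eBayes), which was also tested on simulated data, with 6 comparisons and Benjamini-Hochberg adjustment over all genes. The arrays give no depth, and their number (3 a group) limits the precision. Figures used Python 3.11.15 and matplotlib 3.10.9.

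The set of genes to describe, the lists and the tests were chosen with earlier results of these data known, although the naming rule itself uses no values. All 31 members are named; of the other lists, at most the 3 called genes with the largest change in a comparison, plus RRN3, MAF1, RPO41, SFP1, DOT6, TOD6 and STB3. Lists were written from general knowledge of yeast. Pairing was checked by the correlation over genes of same-numbered arrays' deviations from their group means. In IRAK1 and Control it was 0.191, 0.104 and 0.347, each over the limit of 0.1 set for pairing. In IRAK1 and IRAK4 it was -0.197, -0.225 and -0.339, and in each other comparison at least 1 pair was below the limit. No label says what a number stands for, so the pairing is not established. The main fit has no pairing term, and the replicate block was run as an alternative. Alternatives were median centring, quantile normalization, a low-value filter, array weights, averaging the probe sets of each gene, a robust eBayes with a trend, the replicate block, only the arrays compared, and each array left out.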

Additional observations from a re-analysis of the deposited data

How the results depend on the processing

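No subunit gene reversed a call in any of the 6 comparisons under the alternatives run. IRAK4 against Control gave 11 called subunit genes, IRAK4(KD) against Control 3, IRAK1 against Control 20, IRAK2 against Control 2, the direct contrast of IRAK4 with IRAK4(KD) 8 and that of IRAK1 with IRAK4 15. Array weights, which give outlying arrays less weight, moved the count to 22 in IRAK4, 10 in IRAK4(KD), 15 in IRAK2 and 13 in IRAK4 against IRAK4(KD). Shares of all genes called under the alternatives are not given here, so these counts show only how the calls depend on the fit. Fits of only the 6 arrays compared gave 8 in IRAK4(KD), 13 in IRAK1, 9 in IRAK2 and 4 in IRAK1 against IRAK4. With the replicate number as a block the counts, in the order of the comparisons above, were 11, 3, 20, 2, 7 and 17, and the block ended no call in IRAK1 against Control. The block was an effect common to all 5 groups, so it cannot model a pairing of IRAK1 and Control alone. In the other comparisons 0, 3, 3, 0 and 0 of 6 arrays correlated best with their own number, against 6 of 6 in IRAK1 and Control. What a number stands for is not known in any comparison. Leaving out each array in turn, the IRAK1 count ran from 17 to 25, the IRAK4 count from 8 to 18, and the IRAK4(KD) and IRAK2 counts from 0 to 8 each; the direct comparisons gave 2 to 14 (IRAK4 against IRAK4(KD)) and 10 to 17 (IRAK1 against IRAK4). The highest counts in IRAK4 (18), IRAK4(KD) (8), IRAK2 (8) and IRAK4 against IRAK4(KD) (14) came without IRAK1 replicate 1, which lies outside those comparisons but enters the shared spread. Calls held in every alternative for 7 of the 11 genes in IRAK4, 13 of the 20 in IRAK1, 0 of the 3 in IRAK4(KD) and 0 of the 2 in IRAK2. They held for 2 of the 8 in IRAK4 against IRAK4(KD) and for 4 of the 15 in IRAK1 against IRAK4. Over single arrays left out, RTP1 ran from -0.19 to 0.21 in IRAK1 against Control, and in IRAK1 against IRAK4 RBA50 ran from -0.14 to 0.23 and TOD6 from -0.42 to 0.33. RTP1, needed for nuclear import of polymerase II, was called higher in IRAK1 against Control with array weights (0.24) and without IRAK1 replicate 1 (0.21), RBA50 was at 0.23 and TOD6 at 0.33 in IRAK1 against IRAK4 without that array, each with the sign turned; the cause was not tested.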
